A study of Neogale vison with 6 samples.

Results

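Selective autophagy cargo receptors are proteins that recognize what is to be degraded and tie it to the growing autophagosome. The 8 receptor genes described here were chosen by name, with earlier results of these data known but by a rule that uses no measured value, and each was found once by its symbol among the 24526 genes of the count table. They fall into 6 ubiquitin-binding receptors (SQSTM1, NBR1, OPTN, TAX1BP1, CALCOCO2 and TOLLIP) and 2 mitophagy receptors (BNIP3 and FUNDC1). All 8 had enough reads to be tested.

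The counts come from Mv1Lu, an epithelial line derived from mink lung. Cells were left untreated (control, 3 libraries) or subjected to cholesterol depletion (CD, 3 libraries), that is, to 16 h with 50 μM of the statin lovastatin and 50 μM mevalonate in medium holding 10% lipoprotein-deficient serum (LPDS). Lovastatin inhibits HMG-CoA reductase, and mevalonate, the product of that enzyme, was given so that protein prenylation could go on. The comparison asks whether the mRNAs of the receptors differ when cells are short of cholesterol, and it covers the statin, the mevalonate and the serum as a whole, since no library separates them.

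A ubiquitin-binding receptor holds a ubiquitinated cargo (an aggregate, a damaged mitochondrion, a bacterium) with one domain and, with a short LC3-interacting motif, an ATG8 protein on the autophagosome membrane. Mitophagy receptors need no ubiquitin, because they are themselves anchored in the outer mitochondrial membrane and present the same kind of motif to the cytosol. Most receptors are degraded together with their cargo. The level of the protein therefore depends on degradation as well as on synthesis, whereas the data here are of mRNA only.

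Reads counted on genes ranged from 13473820 to 18633764 per library. Expression is given as CPM, the reads of a gene relative to the reads of its library, after scaling of the libraries by TMM, and a gene was called at an FDR (Benjamini-Hochberg adjusted p over all 12148 genes tested) under 0.05 in edgeR. Among all tested genes, the median coefficient of variation was 8.80% within the control and 17.0% within the CD libraries. Markers were compared with the label of the line. Of the epithelial markers, KRT19 was at 936 ± 66.9 CPM in control cells (SD, n = 3), whereas EPCAM and CDH1 had at most 6 reads in any library. The 6 epithelial markers found of 8 listed summed to 1090 to 1215 CPM in the untreated and 584 to 670 CPM in the depleted cells, most of it KRT19. Of the 4 tested, KRT19 was lower and CLDN4 higher, and TJP1 and OCLN were not called (log2 fold changes -0.31 and 0.063). The surfactant genes SFTPB and SFTPC had 0 reads in all libraries, the immune marker PTPRC had at most 1 read and the endothelial marker PECAM1 at most 5. VIM, a mesenchymal marker, was at 4070 ± 119 CPM without and 4152 ± 569 CPM with CD (mean ± SD of 3 libraries), and TEK, which is listed as an endothelial marker, was at 215 ± 7.79 and 102 ± 24.5 CPM. VIM was the only one of 4 tested mesenchymal markers that was not called, and COL1A1, COL1A2 and PDGFRB were lower (median log2 fold change of the 4 -0.65). The mesenchymal markers (5 found of 5) summed to 4165 to 4424 CPM without and 3888 to 4944 CPM with CD, most of it VIM, the endothelial (4 of 4) to 206 to 221 and 74.9 to 122.9 CPM, and the immune (4 of 5) to 5.13 to 5.62 and 16.9 to 22.4 CPM. The part of these marker levels in the results below was not tested.

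Of the ubiquitin-binding group, 4 members rose in CD and none fell. SQSTM1, NBR1, OPTN and TAX1BP1 were higher by 4.98-, 2.91-, 3.15- and 2.17-fold, whereas CALCOCO2 (95% interval 0.855- to 1.31-fold) and TOLLIP (0.842- to 1.19-fold) did not pass the test. Both mitophagy receptors were called higher, with 1.77-fold for FUNDC1 and 1.31-fold for BNIP3. Thus 4 of 6 ubiquitin-binding and 2 of 2 mitophagy receptors were called higher, where 24.8% of all tested genes were called higher, 22.9% lower and 47.7% in either direction. A called rise of at least 2-fold was found for 4 of the 8 members and for 10.6% of all tested genes. The median log2 fold change was 1.33 over the ubiquitin-binding receptors, 0.61 over the mitophagy receptors and 0.057 over all tested genes. In bulk RNA, fewer cells with a transcript and less of it in each cell cannot be told apart.

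**Figure D1:**
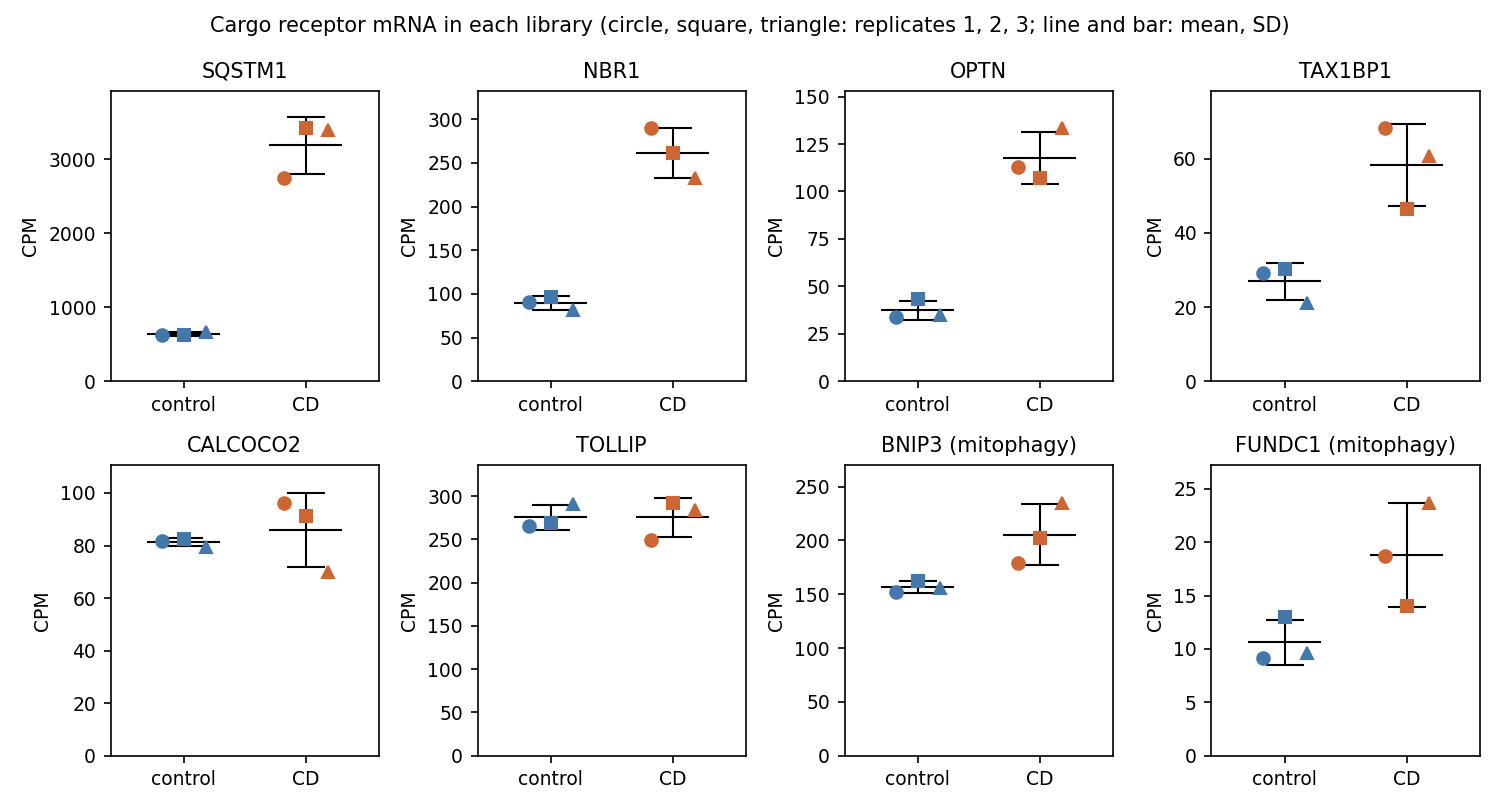
CPM of each receptor (vertical axes, linear and from 0, with their own range in each panel) in the 3 control and 3 CD libraries, each point being 1 library and the lines and bars the mean and SD of 3 libraries. The CD points lie above all control points for SQSTM1, NBR1, OPTN, TAX1BP1, BNIP3 and FUNDC1, whereas the groups overlap for CALCOCO2 and TOLLIP.

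SQSTM1 encodes p62, which forms filaments with ubiquitinated proteins and also binds KEAP1, the inhibitor of the transcription factor NRF2. In the 3 control libraries, in the order of their replicate numbers, SQSTM1 (ENSNVIG00000009967) was at 628, 625 and 666 CPM, and in the 3 CD libraries at 2746, 3413 and 3391 CPM. The lowest CD library was thus far above the highest control library. Its log2 fold change of 2.32 (95% interval 2.01 to 2.62, FDR 1.24e-06, edgeR) placed SQSTM1 at rank 232 of the 12148 tested genes, counted from the largest rise. Of all reads counted on genes, SQSTM1 took 0.0636% ± 0.00160 without and 0.319% ± 0.0271 with CD (mean ± SD of 3 libraries).

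NBR1 acts beside p62, with which it assembles through a shared type of domain, in the clearance of aggregates and of peroxisomes. NBR1 (ENSNVIG00000014141) had 91.0, 96.6 and 81.5 CPM in control replicates 1 to 3 against 289, 261 and 233 CPM in CD replicates 1 to 3. No CD library came near the control range, although the CD libraries themselves differed by up to 1.24-fold. NBR1 rose by a log2 fold change of 1.54 (95% interval 1.26 to 1.82, FDR 8.54e-06, edgeR).

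OPTN (optineurin) is a receptor for damaged mitochondria and for bacteria, and its binding to ATG8 proteins is strengthened by the kinase TBK1. OPTN (ENSNVIG00000022685) had 34.0, 43.2 and 35.2 CPM in untreated cells and 113, 107 and 133 CPM after CD, again without overlap. The log2 fold change of 1.65 (95% interval 1.34 to 1.97, FDR 1.22e-05, edgeR) was second in size only to that of SQSTM1 among the 8 receptors. Its interval overlapped that of NBR1 and lay wholly below that of SQSTM1.

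TAX1BP1 serves the clearance of aggregates and, with NCOA4, of ferritin, and it is a paralog of CALCOCO2. TAX1BP1 (ENSNVIG00000011815) had 29.2, 30.4 and 21.2 CPM in untreated cells and 68.1, 46.3 and 60.7 CPM after CD. It was the most variable of the 4 called ubiquitin-binding receptors, with a coefficient of variation of 18.6% among control and 19.0% among CD libraries. The groups nevertheless did not overlap, and the rise was a log2 fold change of 1.12 (95% interval 0.70 to 1.54, FDR 8.21e-04, edgeR).

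CALCOCO2 (also known as NDP52) targets bacteria and damaged mitochondria and recruits the initiation complex of autophagy to them. CALCOCO2 (ENSNVIG00000006167) was at 81.7, 82.4 and 79.4 CPM in the control libraries, the tightest group of all 8 receptors, and went to 96.3, 91.2 and 69.8 CPM after CD. CD replicates 1 and 2 thus lay above all control libraries and CD replicate 3 below all of them. Its log2 fold change of 0.079 (FDR 0.66, edgeR) had a 95% interval from -0.23 to 0.38. Without CD replicate 3 the log2 fold change was 0.17 (FDR 0.18, edgeR).

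TOLLIP carries a CUE domain, a fold that binds ubiquitin, and is otherwise known for its part in Toll-like receptor signaling and endosomal sorting. TOLLIP (ENSNVIG00000006851) had 265, 270 and 291 CPM in untreated cells and 249, 293 and 285 CPM after CD, and the groups overlapped over most of their range. The difference was 0.00037 on the log2 scale (FDR 0.998, edgeR), with a 95% interval from -0.25 to 0.25, and a change within these bounds was not detectable with 3 libraries per group. The intervals of CALCOCO2 and TOLLIP both lay wholly below those of the 4 called ubiquitin-binding receptors.

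BNIP3 sits in the outer mitochondrial membrane as a dimer and is a well-known target gene of the hypoxia factor HIF-1. BNIP3 (ENSNVIG00000009234) had 152, 163 and 156 CPM in untreated cells and 179, 202 and 235 CPM after CD. The groups did not overlap, but CD replicate 1 exceeded the highest control library by only a little. BNIP3 rose by a log2 fold change of 0.39 (95% interval 0.11 to 0.66, FDR 0.0250, edgeR), less than the upper quartile of 0.52 over all tested genes. The call was lost when any single control library or CD replicate 2 was left out (FDR 0.0617 to 0.11, edgeR). Without CD replicate 3, BNIP3 was still called, at a log2 fold change of 0.25 (FDR 0.0471, edgeR).

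FUNDC1, the other mitophagy receptor, spans the outer membrane and is switched between active and inactive states by phosphorylation. FUNDC1 (ENSNVIG00000016479) had the fewest reads of the 8 receptors, with 128, 180 and 175 reads in untreated cells and 305, 228 and 329 reads after CD, or 9.17, 13.0 and 9.64 CPM against 18.7, 14.0 and 23.7 CPM. The highest control library and the lowest CD library were close to each other. Counting error alone gave a coefficient of variation of 7.88% without and 5.90% with CD, whereas the libraries varied by 19.7% and 25.8%. FUNDC1 rose by a log2 fold change of 0.83 (95% interval 0.32 to 1.33, FDR 0.0131, edgeR), and the call was lost without control replicate 1 or 3 (FDR 0.0615 and 0.0646, edgeR).

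**Figure D2:**
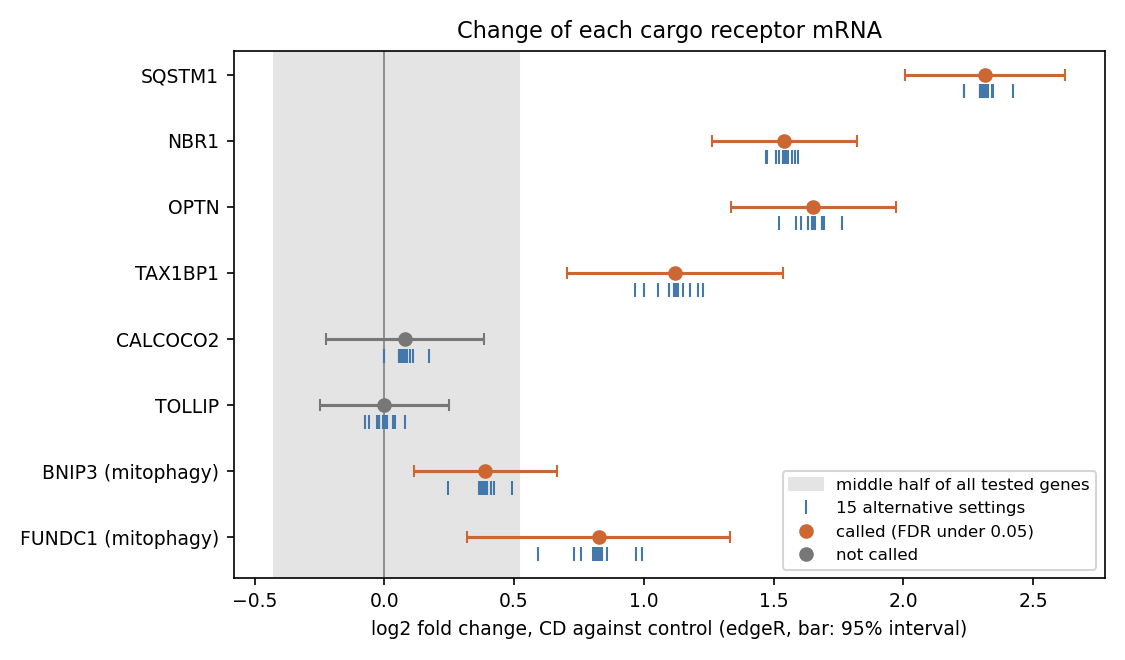
Log2 fold change of CD against control for the 8 receptors (horizontal axis), with the 95% interval of the edgeR fit as bars and the values under 15 alternative settings as ticks, over a gray band that holds all tested genes between the lower and upper quartile (-0.43 to 0.52). SQSTM1 stands apart at 2.32, NBR1, OPTN and TAX1BP1 lie between 1.12 and 1.65, and BNIP3, CALCOCO2 and TOLLIP have their points inside the gray band.

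The 6 called receptors had all their CD libraries above all their control libraries. The groups were apart in this direction in 29.5% and in the opposite one in 28.6% of all tested genes. An exact permutation test over the 6 libraries gave each of these 6 receptors a two-sided p of 0.1, the smallest that 3 against 3 libraries allow, and gave 0.8 for CALCOCO2 and 1 for TOLLIP. SQSTM1, NBR1, OPTN and TAX1BP1 were called under all 15 alternative settings, FUNDC1 under 12 and BNIP3 under 10 of them, and CALCOCO2 and TOLLIP under none. At an FDR under 0.01, which 16.5% of all tested genes passed in the upward direction, neither mitophagy receptor was called. Nothing in the labels says whether the libraries of a group came from separate cultures, so the p-values measure the spread between these libraries, which may be technical in part.

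The CD libraries did not deviate alike for all receptors. Among the CD libraries, SQSTM1, TOLLIP and BNIP3 were lowest in CD replicate 1, TAX1BP1, OPTN and FUNDC1 in CD replicate 2, and NBR1 and CALCOCO2 in CD replicate 3. CD replicate 3 was at the same time the highest CD library for OPTN, BNIP3 and FUNDC1. Over all tested genes, the standard deviation of the log2 deviations from the CD mean was 0.30, 0.19 and 0.34 in CD replicates 1, 2 and 3, and the part of these differences between libraries in the receptors' values was not tested.

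Since the fold changes of the receptors were unequal, their proportions within a library were compared. A ratio of the reads of 2 genes within a library does not depend on how the libraries are scaled, and gene lengths do not enter as long as the same ratio is compared between groups. The log2 ratio of SQSTM1 to TOLLIP reads was 1.24, 1.21 and 1.19 in untreated cells and 3.46, 3.54 and 3.57 after CD, a rise by 2.31. This was the ratio with the smallest spread in both groups. The ratio of SQSTM1 to CALCOCO2 rose 4.74-fold, that to BNIP3 3.80-fold and that to FUNDC1 2.82-fold.

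SQSTM1 also gained on the receptors that themselves rose. Relative to TAX1BP1, NBR1 and OPTN, its log2 ratio rose by 1.19, 0.77 and 0.65, and for each of the 7 receptors the ratio in every CD library was above that in every control library. The margin was narrow for NBR1, whose log2 ratio reached 3.03 in control replicate 3 and was 3.25 in CD replicate 1. The smallest of these differences with all libraries, that to OPTN, stayed between 0.53 and 0.73 when single libraries were left out. That to NBR1 stayed between 0.64 and 0.95. Without CD replicate 3 it was 0.64 and thus smaller than that to OPTN, at 0.70.

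**Figure D3:**
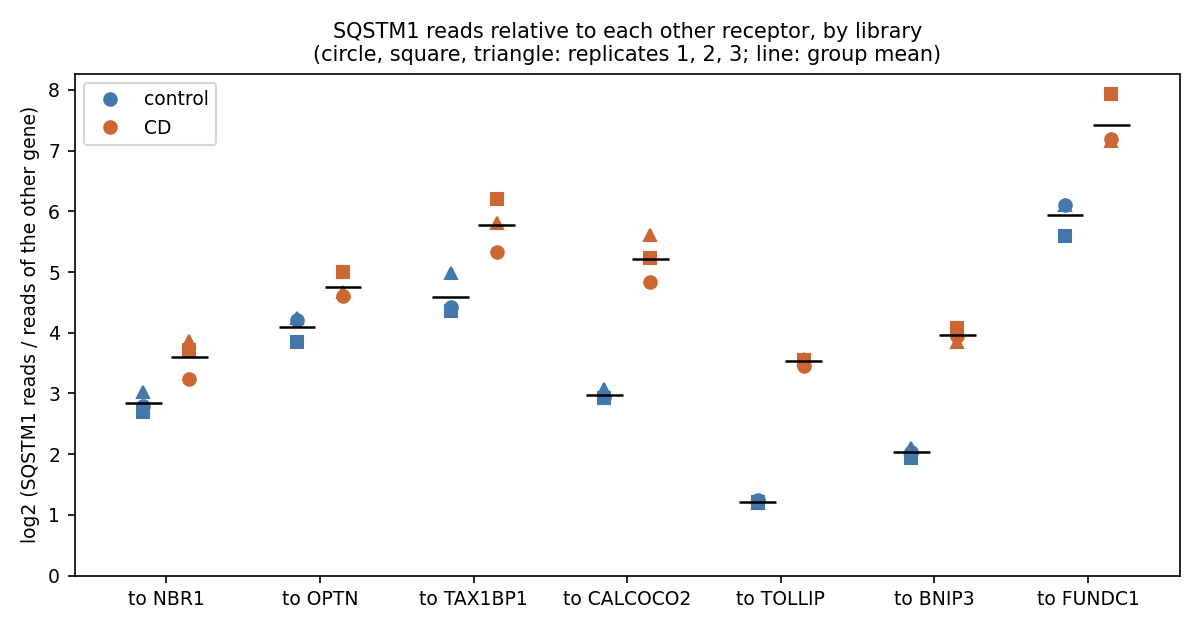
Log2 of SQSTM1 reads over the reads of each other receptor (vertical axis) in the 3 control and 3 CD libraries, with points for libraries and lines for group means. The CD libraries lie above the control libraries for all 7 receptors, with the smallest mean difference for OPTN (0.65) and the largest for TOLLIP (2.31).

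Because SQSTM1 has more reads than the other 5 ubiquitin-binding receptors together, it dominates their sum. Summed over the 6 receptors, expression was 1150 ± 23.3 CPM without and 3982 ± 364 CPM with CD (mean ± SD of 3 libraries), and SQSTM1 took 55.6% ± 1.11 and 79.8% ± 2.36 of these reads. Without SQSTM1, the sum of the other 5 was 511 ± 10.6 CPM without and 798 ± 17.7 CPM with CD. Long transcripts gather more reads than short ones, so these sums weight the receptors by reads and not by molecules.

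The surroundings of the receptors were examined through lists of genes written from general knowledge. Of 54 listed genes other than the 8 receptors and the markers, 46 were found in the table and 44 were tested, of which 19 were called higher and 3 lower (24.8% and 22.9% of all tested genes). Of these 22 calls, 17 were made under all 15 alternative settings as well.

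Of 18 genes of receptors of other kinds, 16 were tested, 5 were higher, 1 was lower and 10 were not called, with a median log2 fold change of 0.21. Among all tested genes, 24.8% were higher and 22.9% lower. The share of higher genes was near this among the 16, as it was among the 9 for the endoplasmic reticulum. Of the 9 receptors for the endoplasmic reticulum, CALCOCO1 (log2 fold change 1.28, FDR 4.33e-05, edgeR), CCPG1 (1.21, FDR 6.18e-04) and RETREG1 (0.99, FDR 0.00116) were higher and the other 6 were not called. CALCOCO1 is the closest relative of CALCOCO2 and TAX1BP1, CCPG1 is known as a gene induced by stress of the endoplasmic reticulum, and RETREG1 (FAM134B) bends its membrane. CALCOCO1 had 67.4, 61.4 and 67.3 CPM in untreated cells and 166, 179 and 133 CPM after CD, without overlap.

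Of the 4 receptors for other cargo, STBD1, which binds glycogen, was higher (log2 fold change 1.47, FDR 0.00102, edgeR) at a low level of 1.35 ± 0.367 CPM without and 3.79 ± 0.369 CPM with CD (mean ± SD of 3 libraries). The ferritin receptor NCOA4, the partner of TAX1BP1, was not called (0.26, FDR 0.25, edgeR).

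Of 3 further mitophagy receptors that were tested, 1 was higher and 1 lower, a share near that of all tested genes (24.8% and 22.9%). BCL2L13, an outer membrane protein, was higher (log2 fold change 0.51, FDR 0.0281, edgeR, called under 9 of the 15 settings), FKBP8 was not called (0.056, FDR 0.73) and PHB2 was lower (-0.82, FDR 2.26e-04). PHB2 is a prohibitin of the inner membrane, which serves as a receptor only once the outer membrane has been broken, and it also has roles in mitochondrial structure. Its level was 381, 363 and 400 CPM in untreated cells and 197, 219 and 232 CPM after CD, without overlap.

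Among 6 tested regulators of mitophagy, 2 were higher and 1 was lower, shares near those of all tested genes (24.8% and 22.9%). PINK1, the kinase that marks damaged mitochondria with phosphorylated ubiquitin, rose from 91.4, 84.3 and 95.3 CPM to 127, 154 and 165 CPM (log2 fold change 0.72, FDR 0.00113, edgeR). MARCHF5, a ubiquitin ligase of the outer membrane that acts on FUNDC1, rose by a log2 fold change of 0.91 (FDR 0.00358), and PGAM5, the phosphatase that activates FUNDC1, fell (log2 fold change -0.67, FDR 0.00143). PINK1, MARCHF5 and PGAM5 were called under all 15 settings.

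All 3 tested genes of the ATG8 family, to which the receptors bind, were higher, where 24.8% of all tested genes were. GABARAPL1 (GBRL1 in the table) had 113, 110 and 112 CPM in untreated cells and 503, 549 and 578 CPM after CD, a log2 fold change of 2.28 (FDR 4.17e-07, edgeR). MAP1LC3A and GABARAPL2 rose less, with log2 fold changes of 1.27 (FDR 1.19e-04, edgeR) and 1.08 (FDR 3.74e-04). Of the other 3 listed genes of the family, MAP1LC3C, with 1 read in all libraries together, was not tested, and MAP1LC3B and GABARAP were not matched by symbol and were not analysed here.

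Of the kinases and adaptors that act on receptors, 5 of 8 tested genes were higher and none lower (24.8% and 22.9% of all tested genes). The median over all 8 was 0.67 on the log2 scale. RB1CC1 (FIP200), the scaffold that several receptors recruit, rose by 1.36 (FDR 7.18e-04, edgeR), and TANK and AZI2, adaptors of TBK1, rose by 1.35 (FDR 6.42e-04) and 0.76 (FDR 0.0198). The kinase ULK1, which acts at the start of autophagy, rose by 0.85 (FDR 2.51e-04). TBK1 itself, the kinase of OPTN and SQSTM1, lay between 10.6 and 13.1 CPM in untreated cells and between 13.9 and 20.1 CPM after CD (log2 fold change 0.57, FDR 0.0293, edgeR). TBK1 and AZI2 were called under 10 and 11 of the 15 settings.

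Of 9 transcription factors and regulators known from work on receptor genes, 4 were higher, 1 was lower and 4 were not called. Of all tested genes, 24.8% were called higher, 22.9% lower and 47.7% in either direction. NFE2L2, which encodes NRF2, an activator of SQSTM1, had 96.9, 93.0 and 83.0 CPM in untreated cells and 147, 151 and 155 CPM after CD (log2 fold change 0.73, FDR 4.10e-04, edgeR). KEAP1, whose protein holds NRF2 back and is bound by p62, was lower, with 329, 331 and 348 CPM against 193, 217 and 210 CPM (log2 fold change -0.70, FDR 4.21e-04, edgeR). FOXO3 and TFEB, factors for autophagy and lysosome genes, rose by log2 fold changes of 0.90 (FDR 0.00166) and 0.75 (FDR 0.00764). HIF1A was called (0.64, FDR 0.0424, edgeR) although CD replicate 3, at 62.5 CPM, lay within the control range of 58.0 to 67.4 CPM, and it was called under only 6 of the 15 settings.

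**Figure D4:**
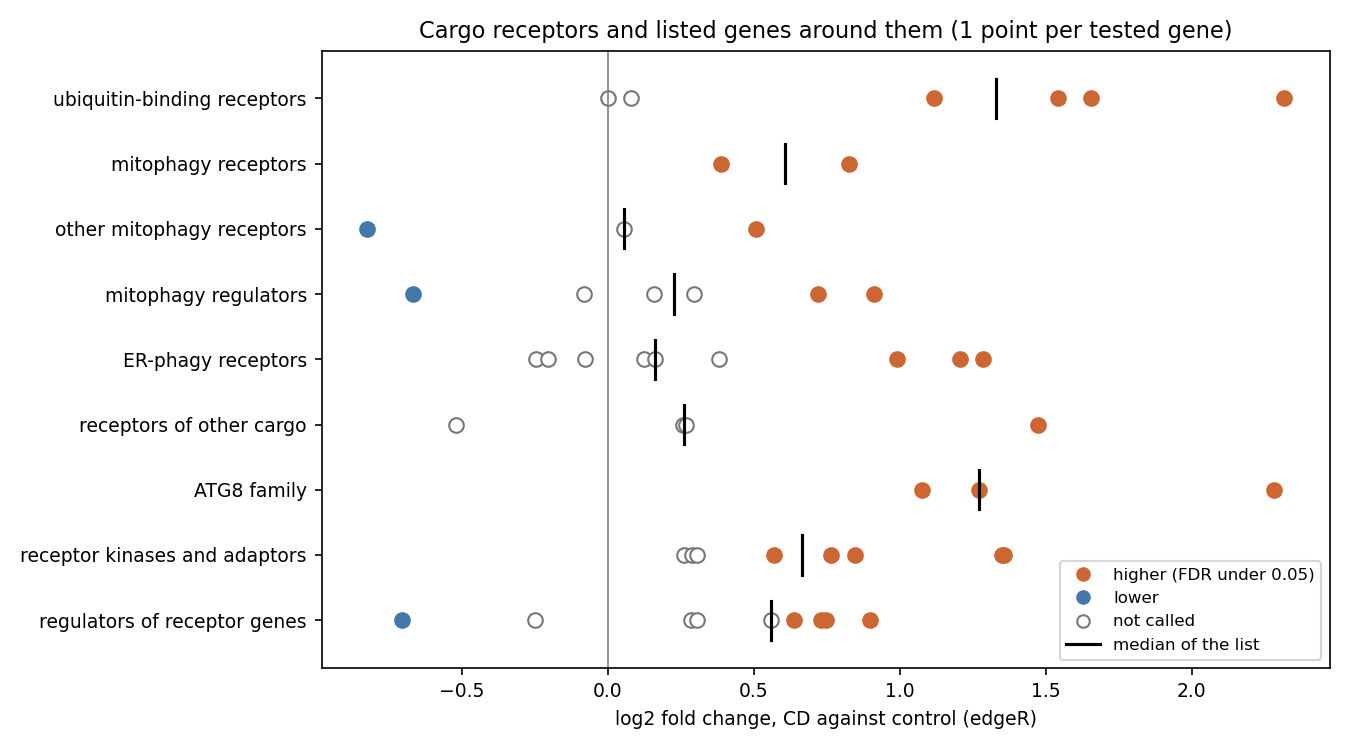
Log2 fold change of CD against control (horizontal axis) for each tested gene of the receptor groups and of 7 lists around them, filled where called at an FDR under 0.05, with a vertical line for the median of each list. All 3 tested ATG8 genes and 4 of 6 ubiquitin-binding receptors are at 1.08 or above, and the lower genes are PHB2, PGAM5 and KEAP1.

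The genes whose pattern over the 6 libraries was most like that of a receptor were sought among the other 10088 tested genes with a symbol, by the root-mean-square difference of centered log2 CPM. For SQSTM1 these were SERINC2 (difference 0.060), GABARAPL1 (0.064) and COL7A1 (0.078), with log2 fold changes of 2.35, 2.28 and 2.35. The ATG8 gene of the list was thus among the 3 nearest genes to SQSTM1. For TOLLIP they were TRABD, SART1 and CDK5RAP3 (0.028 to 0.037), for BNIP3 LRRC42, CNOT11 and C1orf174 (0.026 to 0.045), and for FUNDC1 GNG10, PER3 and CAPZA2 (0.040 to 0.074). With 6 libraries in 2 groups this measure rests mainly on the size of the difference between the groups, and it is a description.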

How the data were processed

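The authors sequenced RNA of Mv1Lu cells in 3 control and 3 CD libraries. Per the labels and the study's methods, poly(A) mRNA was isolated, libraries were made with Nextera XT, and reads were processed with fastp 0.20.1 and aligned with STAR 2.7.2a to the mink assembly NNQGG.v01. The program that counted reads, and whether it used the strand, are not given in the sources used here, so overlapping genes and near-identical copies are uncertain. The authors deposited raw counts per gene. The authors' normalized expression files (DESeq2 1.30.1, R 4.0.3) were not used here. Totals of reads not counted on genes (4 rows, holding 29.3% to 47.2% of a library's reads) were left out. They include unmapped reads, which were 18.4%, 13.6% and 4.25% in control replicates 1 to 3 and 3.54%, 4.33% and 9.37% in CD replicates 1 to 3.

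All 6 libraries entered a single fit in edgeR 4.0.16 (R 4.3.3), with the filter on low counts (filterByExpr, minimum count 10), TMM, robust glmQLFit and glmQLFTest and condition as the only term. The standard error is the log2 fold change over the square root of F, and intervals are 95%. The scripts were tested on simulated data. The alternatives were DESeq2 1.42.0, limma-voom (limma 3.58.1), 3 other scalings, 2 other filters, an FDR of 0.01, the replicate number as a block, and each library left out.

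The receptors and lists were chosen with earlier results of these data known. The genes named are the receptors, up to 3 called members of each list with the largest changes, markers, and the 3 nearest genes in pattern to SQSTM1, TOLLIP, BNIP3 and FUNDC1. NCOA4, FKBP8, MAP1LC3C, TBK1, AZI2, KEAP1 and HIF1A lie outside that rule and were named after their values were seen. Some listed genes are not reported here. Listed genes were matched by symbol, by another symbol in 2 cases (GABARAPL1, MARCHF5; among the markers also MS4A1) and by description in 1 (FOXO3).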

Additional observations from a re-analysis of the deposited data

How the results depend on the processing

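Of 120 values for single receptors (8 receptors under 15 settings), 101 kept their direction and their side of the threshold, 8 kept the direction but were no longer called, and 11 changed sign. The 8 were those of BNIP3 and FUNDC1 given above, and the 11 belonged to TOLLIP and CALCOCO2, which were called under no setting. TOLLIP was at -0.019 with DESeq2 size factors and in DESeq2, -0.0042 without the filter on low counts, -0.0013 in limma-voom and -0.0017 with the replicate block, and lay between -0.073 and 0.079 with each library left out, as CALCOCO2 did between -0.0019 and 0.17. The number of mitophagy receptors called higher was 0 at an FDR of 0.01 and ranged from 0 to 2 with each library left out, and the number of all genes called higher was 2006 at an FDR of 0.01 against 3016. The 4 called ubiquitin-binding receptors kept their calls under all 15 settings. Replicate numbers are shared between the groups. Same-numbered libraries deviated with correlations of -0.024, -0.33 and -0.18 across genes, and the other pairs of libraries with -0.024 to 0.26. With 3 libraries per group these correlations depend on one another, so they cannot show whether same-numbered libraries were handled together. A pairing of the libraries was not tested otherwise than by the replicate block. The replicate block gave 2772 higher and 2636 lower genes and changed no call of a receptor (BNIP3 had an FDR of 0.0486). FUNDC1, with 128 reads in its lowest library, had the largest counting error of the receptors, although its libraries varied by more than counting error alone.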

Other observations

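Some markers of cell type differed between the groups. KRT19, a keratin of simple epithelia, was lower in CD (log2 fold change -1.03, FDR 2.74e-04, edgeR), while the tight junction gene CLDN4 was at 0.603 ± 0.231 CPM in untreated and 7.03 ± 1.11 CPM in depleted cells (mean ± SD of 3 libraries). CD68, which is used as a macrophage marker and encodes a lysosomal membrane protein, went up from 5.45 ± 0.273 to 19.7 ± 2.75 CPM (log2 fold change 1.85, FDR 2.49e-05, edgeR), while the other immune markers that were found had at most 1 read in any library. The mesenchymal genes COL1A1 (log2 fold change -0.93, FDR 9.45e-04, edgeR), COL1A2 (-0.37, FDR 0.0403, called under 8 of the 15 alternative settings) and PDGFRB (-1.08, FDR 0.00163) were lower, as was the club cell gene SCGB1A1 (-1.21, FDR 0.0125, called under 13 of the 15), which had 7 to 22 reads in each library. The endothelial kinase gene TEK fell by 1.08 on the log2 scale (FDR 5.27e-04, edgeR).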
